A study of Homo sapiens with 18 samples.

Results

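The DNA replication and S phase genes are 42 genes whose products license origins, unwind and copy DNA, supply nucleotides and rebuild chromatin behind the fork. They were picked by gene symbol, with earlier results of these data known, and all 42 were listed and measured in both tables, among 15358 genes listed for MCF10A and 15257 for hTERT RPE-1. RNAseq of polyadenylated RNA was conducted on MCF10A cells, a near-normal breast epithelial line, and on hTERT RPE-1 cells, retinal pigment epithelial cells made immortal with the catalytic subunit of telomerase. Both lines were transfected for 72 h at 30 nM with siNT, a non-targeting siRNA, with a mimic of hsa-miR-28-5p (miR-28) or with one of hsa-miR-708-5p (miR-708). The study places both microRNAs in the MIR-28 family. Each of the 6 groups held 3 biological replicates, with the numbers 7 to 9 for MCF10A and 1 to 3 for hTERT RPE-1. The series asks how these mimics alter gene expression.

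Before S phase, ORC, CDC6 and CDT1 load the ring of MCM helicase subunits on origins, a step called licensing. Firing joins CDC45 and the GINS complex to that ring, after which polymerase alpha and primase lay down primers, the RFC clamp loader sets the PCNA clamp on DNA, and polymerases delta and epsilon extend the strands. Most of these genes are transcribed in a wave at the border of G1 and S phase under E2F factors, so their RNA is widely read as a sign of cycling cells, and microRNAs act on RNAs through matches to their seed, bases 2 to 8 of the mature strand.

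The mature strand of hsa-miR-708-5p, taken from RefSeq on GRCh38.p14 at chr11:79402077-79402099 on the minus strand, is shown with its seed in capitals.
hsa-miR-708-5p: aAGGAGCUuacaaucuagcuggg
Members whose annotated 3′ UTR holds a 7-base match to that seed are shown with the match in capitals and 28 bases of hg38 in all. AGCTCCT pairs with bases 2 to 8, and GCTCCTA with bases 2 to 7 followed by an A. Each lies in the last exon of its GENCODE transcript.
RFC3, chr13:33836449-33836476, plus strand: gttaaataattGCTCCTAtactattgaa
POLA1, chrX:24996203-24996230, plus strand: cccctccccaAGCTCCTgaagacccggt
PRIM1, chr12:56731691-56731718, minus strand: ctgaagacagAGCTCCTcaaaccattgt
ORC6, chr16:46697990-46698017, plus strand: ctgtaatcccAGCTCCTcagtaggctga
SLBP, chr4:1693551-1693578, minus strand: gaagagaaacAGCTCCTccccgactagg
CHAF1B, chr21:36417903-36417930, plus strand: gatttcttaaAGCTCCTggagtaattct
CLSPN, chr1:35732272-35732299, minus strand: ctgggatttgtGCTCCTAaggatagagg
GINS4 also had such a match, which makes 8 of 42 members (19.05%), against 18.66% (MCF10A) and 18.7% (hTERT RPE-1) of the tested genes with a 3′ UTR. The 6 bases GCTCCT, which the longer matches contain, were found in 11 members (26.19%), against 35.64% and 35.81% of those genes. The median 3′ UTR was shorter in the members, 956 bases against 1348 and 1373 bases in the tested genes.

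The E2F motif was searched for on both strands as TTTCCCGC, TTTGGCGC, TTTCGCGC or TTTGCCGC, from 250 bases before to 50 bases after the start of the gene. It was found in 20 of the 37 members matched to the RefSeq promoters (54.05%) in 5.339% and 5.313% of the promoters of genes tested in MCF10A and in hTERT RPE-1, and in 3.325% of all 27305 promoters. Promoters of a helicase subunit, the clamp, a clamp loader subunit and the licensing factor that rose most are shown on GRCh38.p14, with E2F matches in capitals. Matches on opposite strands can overlap, and do in MCM6. A match describes the letters alone.
MCM6, chr2:135876394-135876693, minus strand: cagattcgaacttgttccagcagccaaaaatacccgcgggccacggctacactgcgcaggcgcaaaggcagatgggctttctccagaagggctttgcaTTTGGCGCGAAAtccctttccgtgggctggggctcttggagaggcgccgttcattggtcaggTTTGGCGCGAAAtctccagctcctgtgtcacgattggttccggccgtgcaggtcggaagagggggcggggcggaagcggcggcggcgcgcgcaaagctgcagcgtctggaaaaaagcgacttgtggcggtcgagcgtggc
PCNA, chr20:5126573-5126872, minus strand: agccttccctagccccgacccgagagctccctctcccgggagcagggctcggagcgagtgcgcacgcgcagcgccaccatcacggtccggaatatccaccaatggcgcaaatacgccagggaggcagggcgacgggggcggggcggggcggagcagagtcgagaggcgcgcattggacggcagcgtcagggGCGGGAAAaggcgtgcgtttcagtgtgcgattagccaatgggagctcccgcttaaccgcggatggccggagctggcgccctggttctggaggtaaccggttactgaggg
RFC3, chr13:33817899-33818198, plus strand: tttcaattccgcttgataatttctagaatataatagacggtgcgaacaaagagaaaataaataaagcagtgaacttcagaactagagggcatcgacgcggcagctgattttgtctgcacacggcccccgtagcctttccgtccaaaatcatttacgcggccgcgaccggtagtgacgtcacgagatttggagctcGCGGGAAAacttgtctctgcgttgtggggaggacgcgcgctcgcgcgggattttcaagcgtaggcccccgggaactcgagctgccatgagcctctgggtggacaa
CDT1, chr16:88803539-88803838, plus strand: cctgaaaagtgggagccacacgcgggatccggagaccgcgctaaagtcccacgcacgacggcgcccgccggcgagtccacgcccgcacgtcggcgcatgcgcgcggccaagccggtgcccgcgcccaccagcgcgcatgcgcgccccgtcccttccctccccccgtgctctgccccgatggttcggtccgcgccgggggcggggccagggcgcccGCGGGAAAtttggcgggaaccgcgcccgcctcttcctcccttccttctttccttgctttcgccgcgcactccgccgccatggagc
CCAAT, also on both strands, was found in 22 of 37 members (59.46%), in 36.73% and 36.54% of the promoters of tested genes, and in 35.7% of all promoters. TTTGAA, the letters of the CHR element of many mitotic genes, was found in 1 of 37 members (2.703%), in 10.26% and 10.1% of those of tested genes, and in 15.43% of all promoters.

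In MCF10A, the members fell or were not called, and in hTERT RPE-1 they rose or were not called. A gene was called where limma, fitted over all genes, gave a Benjamini-Hochberg adjusted p below 0.05, and changes are log2 fold changes of the value + 1, with the standard error after ±. In MCF10A, 11 of 42 members (26.19%) were called lower with miR-28 and 13 (30.95%) with miR-708, against backgrounds of 12% and 17.3% of all genes. None was called higher, where the background was 10.7% with miR-28 and 15.5% with miR-708. In hTERT RPE-1, 14 members (33.33%) were called higher with miR-28 and 35 (83.33%) with miR-708, against backgrounds of 23.3% and 30.9%. None was called lower there, where the background was 23.5% with miR-28 and 31.2% with miR-708. RNA was measured in bulk, so fewer cells in S phase and less RNA per cell cannot be told apart.

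The median change of the members in MCF10A was -0.23 with miR-28 and -0.21 with miR-708, against 0.0056 and -0.0047 for all genes. In hTERT RPE-1 it was 0.35 with miR-28 and 1.24 with miR-708, against 0.0061 and 0.0021. Both mimics of a line were compared with the same siNT libraries, so their results are not independent of each other. The MCF10A counts moved with single libraries and with the scaling. With miR-28, 5 members were called without siNT replicate 8, 5 without siNT replicate 9, 5 without miR-28 replicate 8 and 6 without miR-28 replicate 9. With miR-708, 6 were called without siNT replicate 8, 8 without miR-708 replicate 8 and 6 without miR-708 replicate 9. With every library scaled to the same total, 6 members were lower and 1, GINS4, higher with miR-28, and 7 were lower with miR-708. The median of the members was then -0.12 with miR-28 and -0.066 with miR-708, against 0.12 and 0.14 for all genes. In hTERT RPE-1, 9 members were called with miR-28 without siNT replicate 2, of which 1, TK1, was lower, and 9 without siNT replicate 3. With miR-708, 34 of the 35 calls held without any 1 library.

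**Figure D1:**
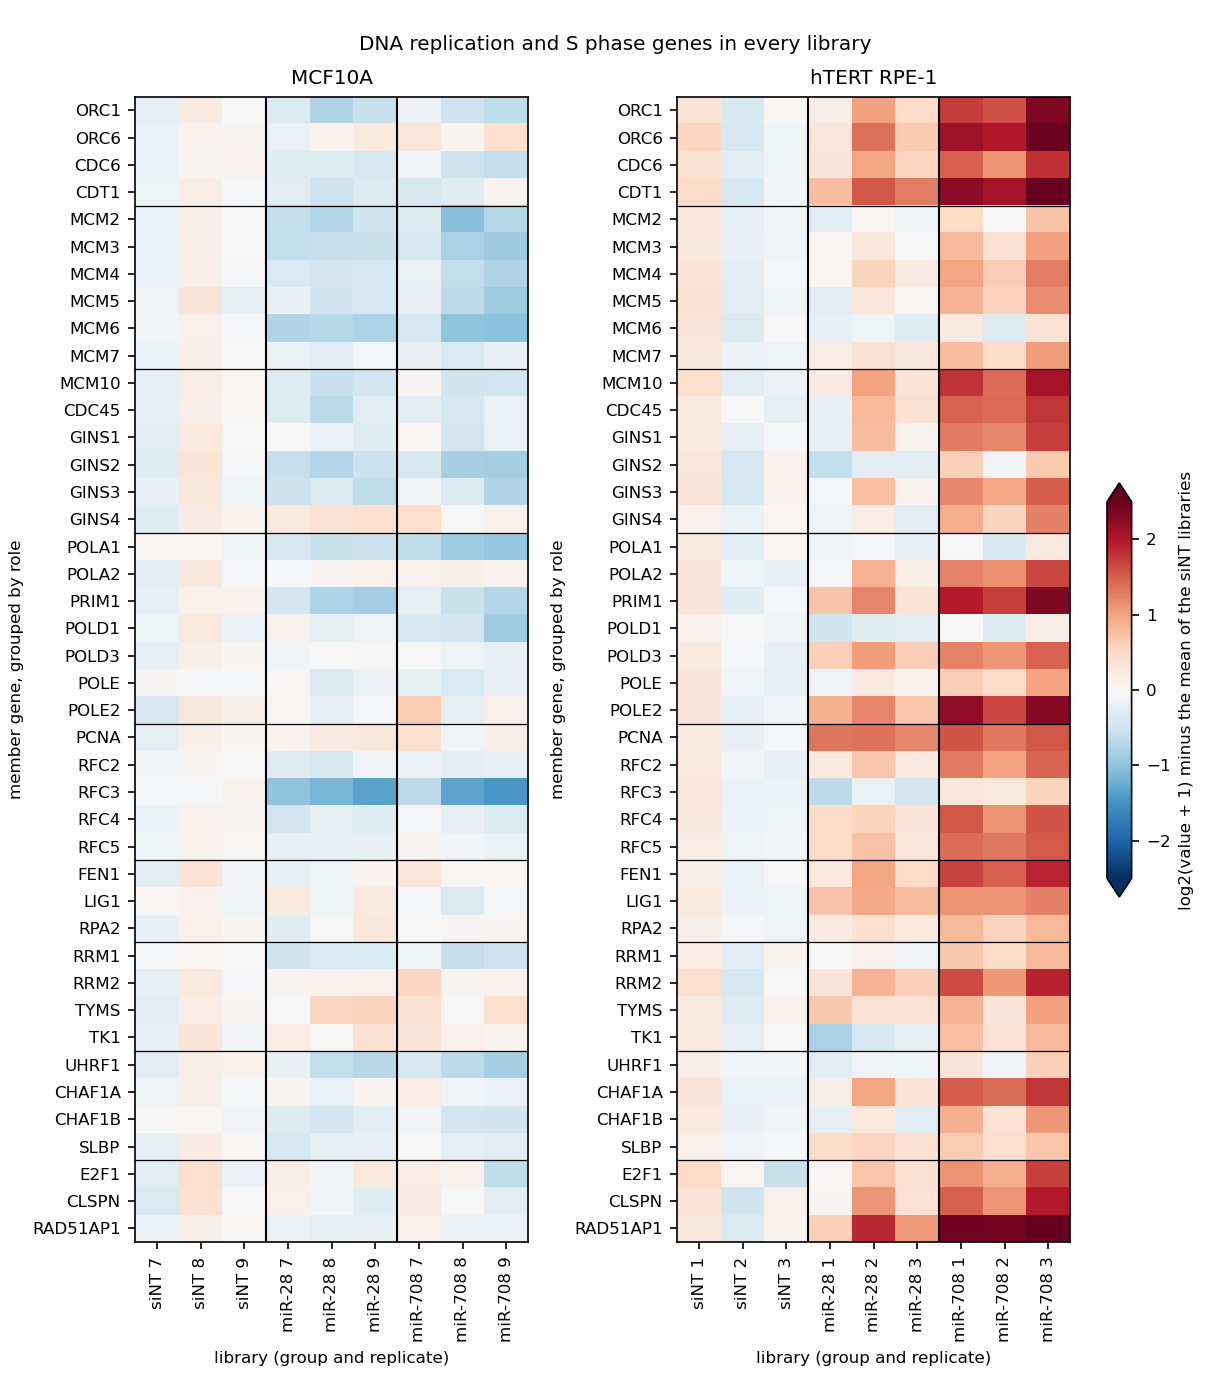
Each row is a member, grouped by role, and each column a library. The colour gives log2(value + 1) minus the mean of the siNT libraries of that line, with red above and blue below. The MCF10A mimic libraries are blue for RFC3 and MCM6, while the 3 miR-708 libraries of hTERT RPE-1 are red for most rows and pale for MCM6, POLA1 and POLD1.

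Among the licensing factors, ORC1, the ATPase subunit of the origin recognition complex, had values of 466, 636 and 535 with siNT, 429, 322 and 369 with miR-28 and 489.8, 377 and 348 with miR-708 in MCF10A. All 3 miR-28 libraries lay below all siNT libraries, whereas miR-708 replicate 7 overlapped them, and only the change with miR-28 was called (-0.55 ± 0.17, adjusted p = 0.0411). In hTERT RPE-1 its values were 139.9, 83.1 and 113 with siNT, 121, 225 and 154 with miR-28 and 368, 339 and 559 with miR-708. The miR-708 libraries were the highest, without overlap (1.90 ± 0.27, adjusted p = 1.46e-04), and those with miR-28 overlapped siNT. CDT1, which brings the helicase to origins and is destroyed once S phase begins, had values of 138, 73.0 and 93.9 with siNT, 168, 291 and 240.0 with miR-28 and 475, 419 and 598 with miR-708 in hTERT RPE-1. There the 3 groups did not overlap and rose in the order siNT, miR-28, miR-708, by 1.20 ± 0.26, adjusted p = 0.00341 with miR-28 and 2.31 ± 0.26, adjusted p = 2.64e-05 with miR-708. ORC6, a further ORC subunit, had values of 273, 141 and 175 with siNT, 234.5, 494 and 297 with miR-28 and 827, 759 and 1057 with miR-708 there. The miR-708 libraries stood apart, and miR-28 replicate 1 lay inside the siNT range. It rose by 0.78 ± 0.29 with miR-28 (adjusted p = 0.0454) and by 2.20 ± 0.29 with miR-708 (adjusted p = 7.86e-05). CDC6, the loader that works beside CDT1, had values of 1114, 1310.2 and 1351 with siNT, 1012, 1014 and 938 with miR-28 and 1193, 875 and 829 with miR-708 in MCF10A and of 822, 525 and 571 with siNT, 784, 1241 and 916 with miR-28 and 1771, 1374 and 2231 with miR-708 in hTERT RPE-1. In MCF10A miR-708 replicate 7 overlapped siNT, and in hTERT RPE-1 all miR-708 libraries lay above siNT. CDC6 moved in opposite directions in the lines with miR-708, by -0.40 ± 0.14, adjusted p = 0.0469 in MCF10A and 1.49 ± 0.22, adjusted p = 1.99e-04 in hTERT RPE-1.

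The 6 MCM subunits form the ring of the replicative helicase, and in MCF10A 4 of 6 fell with miR-28 and 5 of 6 with miR-708. MCM6 had values of 2784, 3175 and 2820.0 with siNT, 1742, 1785 and 1694 with miR-28 and 2147, 1455 and 1432 with miR-708. No mimic library reached the lowest siNT library (-0.75 ± 0.14, adjusted p = 0.00449 with miR-28, -0.83 ± 0.14, adjusted p = 0.00134 with miR-708). MCM3 had values of 3498, 4397 and 3908 with siNT, 2557, 2636 and 2676 with miR-28 and 2898, 2220.4 and 2086 with miR-708, also without overlap (-0.58 ± 0.13, adjusted p = 0.00898 and -0.72 ± 0.13, adjusted p = 0.00165). MCM2 fell by 0.61 and 0.71, and MCM4 fell by 0.43 and 0.51, on the log2 scale with miR-28 and miR-708. MCM5 was called with miR-708 alone (-0.59 ± 0.19, adjusted p = 0.0352), with miR-708 replicate 7 inside the siNT range, and MCM7 with neither.

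In hTERT RPE-1 no MCM subunit was called with miR-28, and 4 of 6 rose with miR-708. MCM3 had values of 1806, 1276 and 1389.7 with siNT, 1495, 1813 and 1470.2 with miR-28 and 2585, 1912 and 2992 with miR-708, and the miR-708 libraries alone lay above all others (0.74 ± 0.17, adjusted p = 0.00376). MCM4, MCM5 and MCM7 rose by 0.96, 0.87 and 0.76 with miR-708. MCM6, the subunit that fell most in MCF10A, had values of 1557, 981 and 1249 with siNT, 1075, 1148 and 987 with miR-28 and 1452, 994 and 1598 with miR-708 in hTERT RPE-1. Its groups overlapped and it was not called (0.091 ± 0.19, adjusted p = 0.700, 95% confidence interval -0.33 to 0.52). MCM2 had values of 942, 657 and 722 with siNT, 639, 782 and 701 with miR-28 and 1084, 771 and 1258 with miR-708, with miR-708 replicate 2 inside the siNT range, and was not called either (0.41 ± 0.18, adjusted p = 0.0734, 95% confidence interval 0.0044 to 0.82).

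CDC45 and the GINS subunits complete the active helicase, and MCM10 helps to switch it on. In MCF10A, 1 of these 6 members, GINS2, was called, with values of 452, 706 and 552 with siNT, 375, 338 and 385 with miR-28 and 422, 314 and 306 with miR-708. All mimic libraries of GINS2 lay below all siNT libraries (-0.62 ± 0.18, adjusted p = 0.0304 and -0.70 ± 0.18, adjusted p = 0.0116). With the replicate number as a block, CDC45 (-0.42, adjusted p = 0.0435), GINS3 (-0.51, adjusted p = 0.0310) and MCM10 (-0.45, adjusted p = 0.0409) were called lower with miR-28 as well. GINS4 was the member of this group with positive changes in MCF10A, 0.35 ± 0.15, adjusted p = 0.123 with miR-28 and 0.18 ± 0.15, adjusted p = 0.382 with miR-708, neither called. In hTERT RPE-1, MCM10 had values of 327, 197 and 217 with siNT, 277, 483 and 301 with miR-28 and 847, 638 and 1019 with miR-708. The miR-708 libraries lay above all others (1.76 ± 0.25, adjusted p = 1.55e-04), while miR-28 replicates 1 and 3 lay within the siNT range. CDC45 had values of 189.9, 163 and 135 with siNT, 139.6, 286 and 210.9 with miR-28 and 451, 434 and 556 with miR-708, and here too the miR-708 group alone stood apart. CDC45, GINS1, GINS3 and GINS4 rose by 1.56, 1.41, 1.23 and 0.90 with miR-708, and none of the 6 was called with miR-28. GINS2 was not called with miR-708 (0.39 ± 0.23, adjusted p = 0.160, 95% confidence interval -0.11 to 0.89) and had a change of -0.39 ± 0.23, adjusted p = 0.187 with miR-28.

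POLA1 is the catalytic subunit of polymerase alpha, which extends the RNA primers made by the primase PRIM1. In MCF10A, POLA1 had values of 1377, 1387 and 1242 with siNT, 1008, 911 and 925 with miR-28 and 862, 721 and 683 with miR-708. The 3 groups stood apart, siNT highest and miR-708 lowest (-0.49 ± 0.11, adjusted p = 0.00993 with miR-28, -0.83 ± 0.11, adjusted p = 3.37e-04 with miR-708). PRIM1 had values of 531, 666 and 668 with siNT, 444, 363 and 344 with miR-28 and 526, 421 and 371 with miR-708 in MCF10A and fell with both mimics (-0.70 ± 0.16, adjusted p = 0.0117 and -0.51 ± 0.16, adjusted p = 0.0330). In hTERT RPE-1, PRIM1 had values of 129, 83.1 and 101 with siNT, 168, 242 and 130.5 with miR-28 and 409, 343.4 and 519 with miR-708. There it rose with both mimics, and no groups overlapped (0.76 ± 0.25, adjusted p = 0.0273 and 2.01 ± 0.25, adjusted p = 4.88e-05). PRIM1 was thus the 1 of 42 members called lower in MCF10A and higher in hTERT RPE-1 with miR-28, a pattern of 0.825% of all genes tested in both lines. Its call in hTERT RPE-1 with miR-28 did not hold without every single library. With miR-708 the same pattern held for 6 of 42 members, PRIM1, CDC6, MCM3, MCM4, MCM5 and RRM1, against 2.27% of all genes. Of these 6, MCM3 alone kept its call in MCF10A whichever 1 library was left out.

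POLE2, the second subunit of the leading-strand polymerase epsilon, had the lowest value of any member in hTERT RPE-1. Its values there were 77.7, 51.7 and 58.7 with siNT, 116, 145 and 100.2 with miR-28 and 291, 198 and 301 with miR-708. No groups overlapped, and it rose by 0.93 ± 0.23, adjusted p = 0.00650 with miR-28 and 2.05 ± 0.23, adjusted p = 2.41e-05 with miR-708. POLD3, an accessory subunit of the lagging-strand polymerase delta, had values of 548, 451 and 402 with siNT, 705, 957 and 714 with miR-28 and 1095, 997 and 1283 with miR-708, again with no overlap between groups. It rose by 0.76 ± 0.16 and 1.27 ± 0.16, and POLE and POLA2 rose with miR-708 by 0.71 and 1.36. POLD1, the catalytic subunit of polymerase delta, was not called in hTERT RPE-1 with miR-708 (-0.065 ± 0.15, adjusted p = 0.725, 95% confidence interval -0.39 to 0.26), nor was POLA1 (-0.066 ± 0.17, adjusted p = 0.758, 95% confidence interval -0.45 to 0.32). In MCF10A, POLD1 fell with miR-708 (-0.59 ± 0.18, adjusted p = 0.0258), as did POLE with the replicate block alone (-0.27, adjusted p = 0.0408). The POLD1 values there were 266, 252 and 189 against 326, 425 and 315 with siNT.

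RFC3, a subunit of the clamp loader, had the largest fall of any member in MCF10A. Its values were 953, 956 and 1043 with siNT, 491, 439.5 and 388 with miR-28 and 622, 391 and 359.9 with miR-708. Every mimic library lay below every siNT library (-1.17 ± 0.18, adjusted p = 0.00189 with miR-28 and -1.14 ± 0.18, adjusted p = 9.69e-04 with miR-708), and with either mimic it was the 1 member that passed both the test and a change of at least 2-fold. In hTERT RPE-1 its values were 360.0, 262 and 266 with siNT, 185, 262 and 213 with miR-28 and 359, 353 and 432 with miR-708. The highest miR-28 library lay just under the lowest siNT library and the miR-708 libraries overlapped siNT, and neither change was called (-0.42 ± 0.17, adjusted p = 0.0636 and 0.37 ± 0.17, adjusted p = 0.0788). Its partners RFC2, RFC4 and RFC5 rose with miR-708 in hTERT RPE-1 by 1.25, 1.42 and 1.42, and RFC4 and RFC5 rose with miR-28 too, by 0.46 and 0.52. In MCF10A, RFC4 was called lower with miR-28 only with the replicate block (-0.34, adjusted p = 0.0479).

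PCNA, the sliding clamp that holds polymerases on DNA, had the highest level per kb of transcript of all members in both lines with siNT, 3267 ± 462 in MCF10A and 1382 ± 208 in hTERT RPE-1 (mean ± SD, n = 3, values per kb of the GENCODE transcript). In hTERT RPE-1 its values were 2053, 1533 and 1705 with siNT, 4434, 4485 and 4029 with miR-28 and 5180.0, 4355 and 5139.9 with miR-708. All mimic libraries lay above siNT, and the mimics overlapped each other (1.30 ± 0.12, adjusted p = 1.44e-05 with miR-28 and 1.48 ± 0.12, adjusted p = 2.58e-06 with miR-708). In MCF10A its values were 3520.3, 4673 and 4314 with siNT, 4468, 4817 and 5056 with miR-28 and 5537, 3883 and 4673 with miR-708, which overlapped. PCNA was the member called with the largest change with miR-28 in hTERT RPE-1. In MCF10A it was not called (0.21 ± 0.14, adjusted p = 0.309 and 0.17 ± 0.14, adjusted p = 0.385). The lowest level per kb was that of E2F1 in MCF10A, 55.8 ± 14.6, and that of ORC1 in hTERT RPE-1, 35.9 ± 9.10, which lay within an SD of POLE2 and CDT1 there.

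FEN1, which trims the flaps of Okazaki fragments, LIG1, which seals them, and RPA2, which coats single strands, were not called in MCF10A. In hTERT RPE-1, all 3 rose with both mimics. LIG1 had values of 524, 393 and 399 with siNT, 714, 845 and 750.2 with miR-28 and 954, 950.3 and 1041 with miR-708, with all mimic libraries above siNT (0.82 ± 0.12, adjusted p = 4.47e-04 and 1.17 ± 0.12, adjusted p = 1.94e-05). FEN1 had values of 922, 741 and 832 with siNT, 999, 1631 and 1153 with miR-28 and 2678, 2349 and 3105 with miR-708. Its lowest miR-28 library lay above the highest siNT library. FEN1 rose by 0.57 ± 0.17 and 1.70 ± 0.17, and RPA2 by 0.30 ± 0.11 and 0.74 ± 0.11.

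Of the genes of nucleotide supply, RRM1 is the large subunit of ribonucleotide reductase, which makes deoxynucleotides. RRM1 had values of 4934, 5247 and 4988 with siNT, 3576, 3891 and 3891 with miR-28 and 4689.9, 3348 and 3525 with miR-708 in MCF10A, with the mimic libraries below siNT (-0.42 ± 0.12, adjusted p = 0.0293 and -0.41 ± 0.12, adjusted p = 0.0233). In hTERT RPE-1 it rose with miR-708 alone (0.65 ± 0.13, adjusted p = 0.00154). RRM2, the small subunit of the same enzyme, had values of 1833, 1019.5 and 1354 with siNT, 1713, 2458 and 2053 with miR-28 and 4246, 2900.2 and 5159.9 with miR-708 in hTERT RPE-1. Its miR-28 replicate 1 lay within the siNT range, and its miR-708 libraries were the highest. RRM2 rose with miR-708 in hTERT RPE-1 (1.55 ± 0.24, adjusted p = 2.53e-04) and was not called in MCF10A. TYMS, which makes thymidylate, rose with miR-708 in hTERT RPE-1 (0.73 ± 0.19, adjusted p = 0.00668) and had uncalled changes of 0.36 ± 0.17 and 0.26 ± 0.17 in MCF10A. TK1, the thymidine kinase of S phase, had values of 596, 425 and 506 with siNT, 286, 383 and 443 with miR-28 and 846, 644 and 890.0 with miR-708 in hTERT RPE-1. Its change with miR-28 was -0.47 ± 0.19, adjusted p = 0.0631, not called, with replicate 3 inside the siNT range, and it rose with miR-708 (0.64 ± 0.19, adjusted p = 0.0124).

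UHRF1, which carries DNA methylation over to new strands, had values of 1511, 2030.2 and 1976 with siNT, 1612, 1183 and 1121 with miR-28 and 1380.3, 1163 and 1020.5 with miR-708 in MCF10A. Replicate 7 of miR-28 overlapped siNT, whereas all miR-708 libraries lay below it. UHRF1 fell with both mimics in MCF10A (-0.50 ± 0.17, adjusted p = 0.0495 and -0.63 ± 0.17, adjusted p = 0.0138) and was not called in hTERT RPE-1 with miR-708 (0.28 ± 0.15, adjusted p = 0.130, 95% confidence interval -0.054 to 0.61). CHAF1A and CHAF1B, subunits of the factor that places histones on new DNA, rose with miR-708 in hTERT RPE-1 by 1.56 and 0.78. SLBP, which binds the stem-loop of histone mRNAs, had values of 1356, 1166 and 1227 with siNT, 1713, 1820.3 and 1615 with miR-28 and 1936, 1662 and 2024 with miR-708. The mimic groups overlapped each other and both lay above siNT. SLBP rose there with both mimics (0.46 ± 0.10, adjusted p = 0.00360 and 0.58 ± 0.10, adjusted p = 4.86e-04). In MCF10A none of these 3 was called, and with the replicate block CHAF1B was called lower with miR-708 (-0.35, adjusted p = 0.0457).

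E2F1, an activator of S phase transcription, CLSPN, a fork protein of the checkpoint, and RAD51AP1, a DNA repair protein, were not called in MCF10A. RAD51AP1 had the largest rise of any member in hTERT RPE-1, with values of 196, 125 and 170.2 with siNT, 242, 601 and 339 with miR-28 and 858, 844 and 974 with miR-708. In hTERT RPE-1 the groups did not overlap, although miR-28 replicate 2 was well above its group (1.18 ± 0.28, adjusted p = 0.00583 with miR-28, 2.46 ± 0.28, adjusted p = 3.03e-05 with miR-708, a ratio of 5.51). E2F1 had values of 224, 165 and 109 with siNT, 164, 259 and 209 with miR-28 and 349, 299 and 524 with miR-708, and rose with miR-708 (1.25 ± 0.28, adjusted p = 0.00302). CLSPN had values of 898, 498 and 766 with siNT, 735, 1502 and 894 with miR-28 and 1967, 1507 and 2753 with miR-708 and rose with miR-708 (1.52 ± 0.30, adjusted p = 0.00118), while miR-28 replicates 1 and 3 lay inside the siNT range.

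The response of a member in hTERT RPE-1 was next set against its response in MCF10A, by the difference of the log2 fold changes, since the tables were scaled separately. With miR-28 the difference was called for 18 of 42 members (42.86%), and with miR-708 for 39 (92.86%), each with the higher response in hTERT RPE-1. The backgrounds for a higher response in hTERT RPE-1 were 12.1% and 20.2%. Those for a lower response were 11.3% and 19.6%, with 0 members. With miR-708 the differences called were largest for CDT1 (2.52 ± 0.31, adjusted p = 5.86e-06), PRIM1 (2.52 ± 0.30, adjusted p = 3.52e-06) and RAD51AP1 (2.51 ± 0.31, adjusted p = 1.65e-05). The 3 members not called were POLD1 (0.53 ± 0.23, adjusted p = 0.0769), TK1 (0.46 ± 0.25, adjusted p = 0.153) and TYMS (0.46 ± 0.26, adjusted p = 0.157), of which TYMS was called with the replicate block (0.46, adjusted p = 0.0497). With miR-28 the largest were CDT1 (1.59 ± 0.31), PRIM1 (1.45 ± 0.30) and RAD51AP1 (1.38 ± 0.31), and TK1 had a difference of -0.66 ± 0.25, adjusted p = 0.0640, the lowest of the members. The count with miR-28 was 10 without hTERT RPE-1 siNT replicate 2 and 10 without hTERT RPE-1 miR-28 replicate 2. RFC3 showed a difference with both mimics (0.74 ± 0.25 and 1.52 ± 0.25), though it was called in MCF10A alone.

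**Figure D2:**
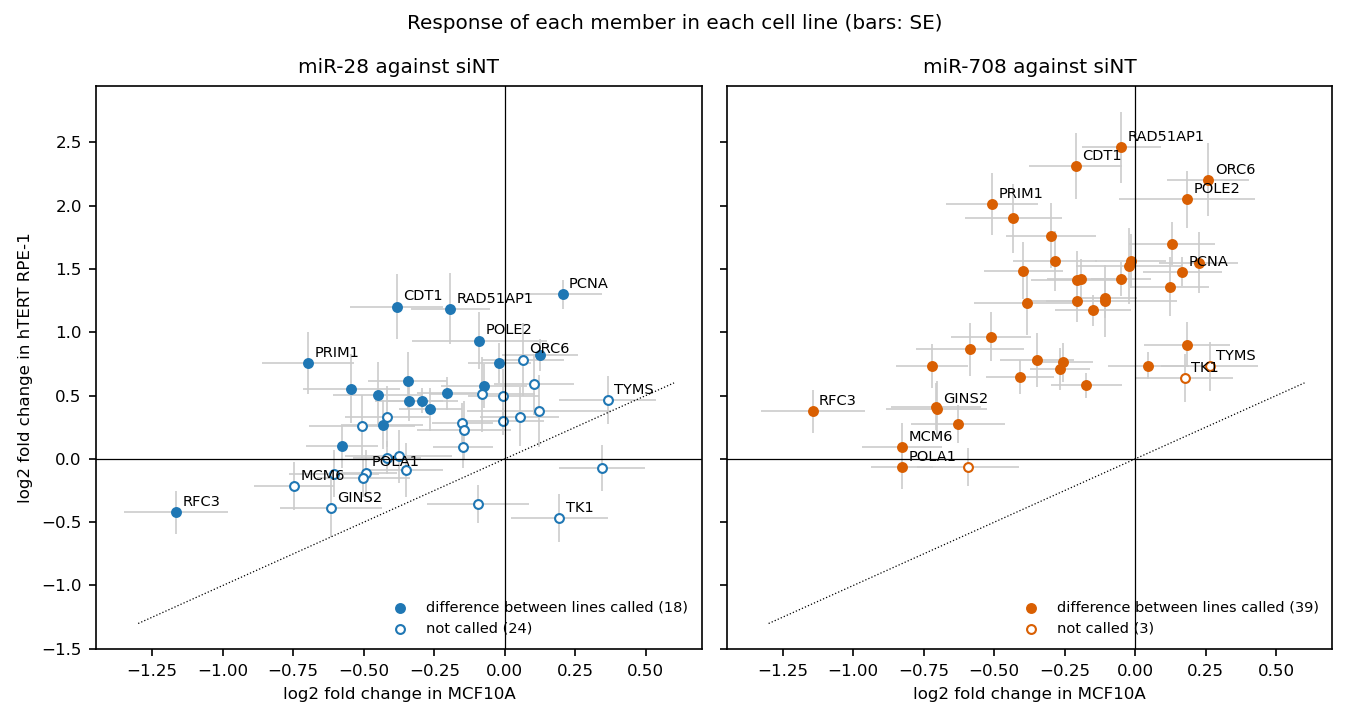
Each point is a member, with its log2 fold change against siNT in MCF10A on the x axis and in hTERT RPE-1 on the y axis, for miR-28 and miR-708. Bars are standard errors, the dotted line marks equal responses, and filled points are the 18 and 39 members whose difference between lines was called. All 42 members lie above the dotted line with miR-708, with RFC3 farthest left and RAD51AP1 at the top.

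The mimics were then compared with each other. In MCF10A limma with Benjamini-Hochberg adjustment called 0 of 42 members, against backgrounds of 1.28% higher and 0.265% lower with miR-708. At an unadjusted p below 0.05 there were 2, POLA1 and POLD1, both lower with miR-708, and the fits with a replicate block, without a trend or on 6 libraries also called 0. In hTERT RPE-1, 32 of 42 members (76.19%) were higher with miR-708 than with miR-28 and none was lower, against backgrounds of 9.88% and 11.4%, and the median of the members was 0.87. ORC6 (1.42 ± 0.29, adjusted p = 0.00744) and ORC1 (1.35 ± 0.27, adjusted p = 0.00731) differed most. PCNA was not called (0.18 ± 0.12, adjusted p = 0.302, 95% confidence interval -0.078 to 0.43), and neither was SLBP (0.12 ± 0.10, adjusted p = 0.406, 95% confidence interval -0.10 to 0.34), although both had risen with each mimic. TK1 was higher with miR-708 (1.11 ± 0.19, adjusted p = 0.00337), and POLD3 was too, though not with the replicate block (0.51, adjusted p = 0.0547). The count of 32 was 18 without miR-28 replicate 3, 19 without miR-708 replicate 1 and 17 without miR-708 replicate 3.

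Subunits of 1 complex did not move by the same amount, and their ratio within a library does not depend on how that library was scaled. The subunits compared here were picked after their values were seen, so the ratios are given as a description, with no test. The log2 ratio of RFC3 to the mean of RFC2, RFC4 and RFC5 was 0.25, 0.046 and 0.23 with siNT, -0.50, -0.69 and -0.98 with miR-28 and -0.45, -0.97 and -1.04 with miR-708 in MCF10A. In hTERT RPE-1 it was -0.31, -0.40 and -0.37 with siNT, -1.43, -1.18 and -1.10 with miR-28 and -1.49, -1.24 and -1.32 with miR-708. The mimic libraries lay below all siNT libraries in both lines. The mean ratio was lower by 0.90 and 0.99 in MCF10A and by 0.88 and 0.99 in hTERT RPE-1, while RFC2, RFC4 and RFC5 rose with miR-708 in hTERT RPE-1 and were not called in MCF10A.

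Other subunits that were not called in hTERT RPE-1 had lower ratios to partners that rose. For POLA1 to the mean of POLA2 and PRIM1, the miR-708 libraries were 0.72, 0.60 and 0.63 against 1.57, 1.15 and 1.14 with siNT in MCF10A, and -0.13, -0.44 and -0.32 against 1.36, 1.40 and 1.61 in hTERT RPE-1. For MCM6 to the mean of MCM3, MCM4, MCM5 and MCM7, they were -0.0086, -0.19 and -0.15 against 0.26, 0.11 and 0.20 in MCF10A and -0.61, -0.81 and -0.74 against 0.029, -0.089 and 0.13 in hTERT RPE-1. For GINS2 to the mean of GINS1, GINS3 and GINS4, they were -0.53, -0.55 and -0.60 against -0.058, 0.083 and -0.0037 and -0.45, -0.88 and -0.76 against 0.17, -0.053 and 0.16. In each of these 3 cases the miR-708 libraries lay below all siNT libraries in both lines. The same held for POLD1 to POLD3, at -1.96, -1.96 and -2.27 against -1.48, -1.46 and -1.80 in MCF10A and -1.74, -1.98 and -1.82 against -0.65, -0.48 and -0.40 in hTERT RPE-1. MCM2 differed from these, since its ratio to MCM3, MCM4, MCM5 and MCM7 overlapped siNT in MCF10A, at -1.08, -1.40 and -0.99 with miR-708 against -0.97, -1.04 and -0.90, and lay below it in hTERT RPE-1, at -1.03, -1.17 and -1.09 against -0.70, -0.67 and -0.66. RFC3 and POLA1 have the seed matches given above, as do PRIM1 and GINS4, partners in the ratios of POLA1 and GINS2. MCM6, GINS2 and POLD1 have none in the annotated 3′ UTR, and MCM2 has a 6-base match.

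**Figure D3:**
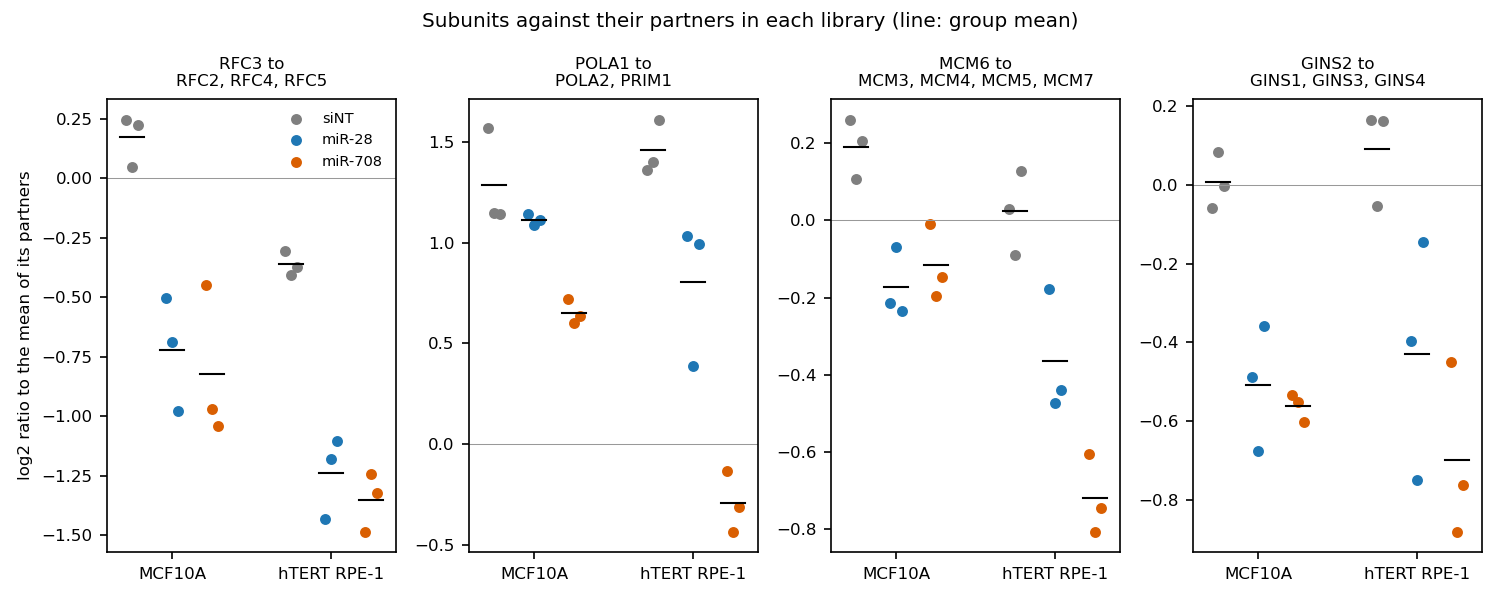
Each point is a library, and the y axis is the log2 ratio of 1 subunit to the mean of its partners, with a separate scale in each panel and bars at the group means. The mimic points of RFC3, MCM6 and GINS2 lie below the siNT points in MCF10A and hTERT RPE-1, and for POLA1 the miR-708 points do.

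Members with a seed match did not all fall. Of the 8 with a 7-base match, 3 were called lower in MCF10A with miR-708 (RFC3, POLA1 and PRIM1) and 6 were called higher in hTERT RPE-1, where ORC6 and PRIM1 rose by 2.20 and 2.01. Their median with miR-708 was -0.26 in MCF10A and 0.84 in hTERT RPE-1, against -0.21 and 1.25 for the other 34. Those 34 include GINS3, MCM2 and POLD3, which have a 6-base match. By promoter, the 20 members with an E2F motif had a median of -0.26 for MCF10A and 0.97 in hTERT RPE-1 with miR-708. The 17 without any of the exact strings searched for had -0.19 and 1.55. Close variants were not searched for, and CDC45 and MCM10, counted among the 17, hold TTTGGCGGG. MCM6, with 4 matches, fell in MCF10A and was not called in hTERT RPE-1, whereas CDT1, with 1, was not called in MCF10A and rose in hTERT RPE-1.

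Within a group, the members moved together from library to library. The median of the members relative to the siNT mean was 0.29, -0.21 and -0.070 in the siNT libraries of hTERT RPE-1, 0.11, 0.69 and 0.30 in those with miR-28 and 1.16, 0.99 and 1.46 in those with miR-708. Replicate 1 was the highest siNT library for 42 of 42 members, replicate 2 the highest miR-28 library for 38, and replicate 2 the lowest miR-708 library for 42. Replicate 1 was the lowest miR-28 library for 28 members, and 15.1% of its signal lay in rRNA genes, against 4.23% to 7.20% in the other hTERT RPE-1 libraries. Without it, 16 members were called higher with miR-28 and none lower. In MCF10A the medians were -0.17, 0.16 and -0.0020 with siNT, -0.19, -0.26 and -0.24 with miR-28 and -0.053, -0.35 and -0.24 with miR-708, and replicate 8 was the highest siNT library for 38 members. Every miR-708 library of hTERT RPE-1 lay above every siNT library in this median, whereas in MCF10A the miR-28 libraries lay below siNT by a small margin and miR-708 replicate 7 lay inside the siNT range. The median over all genes was no farther than 0.0120 from 0 in any library. What moved the members together within a group was not tested.

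**Figure D4:**
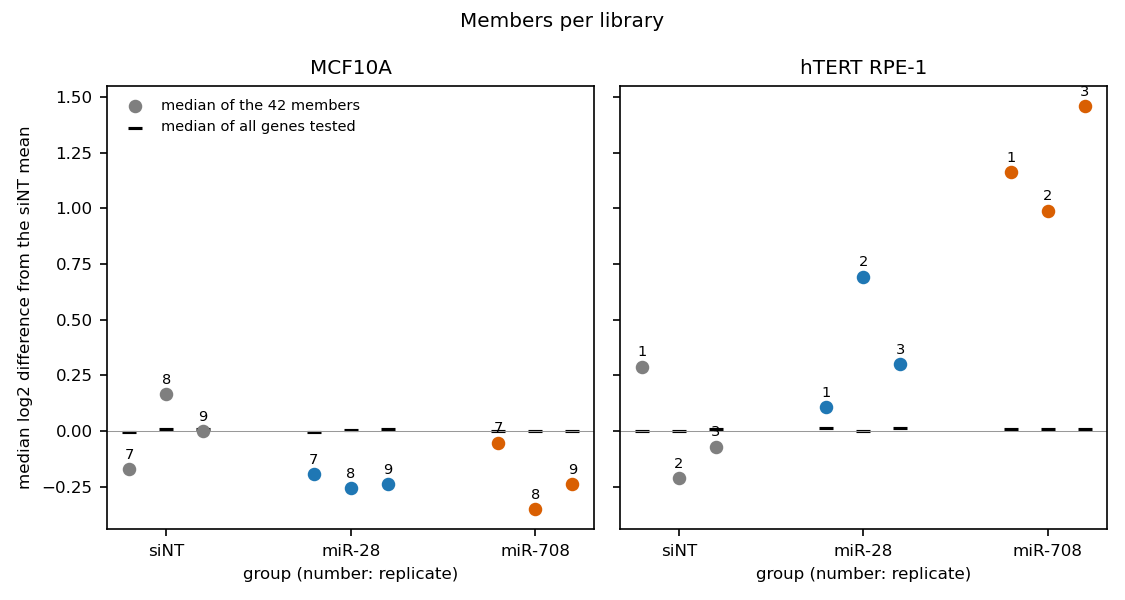
The y axis is the median log2 difference from the siNT mean over the 42 members (points, with replicate numbers) or over all genes tested (dashes), for each library of a group on the x axis. In hTERT RPE-1 the 3 miR-708 points, 0.99 to 1.46, lie above all others, and in MCF10A the miR-708 points, -0.35 to -0.053, overlap the siNT points while the miR-28 points lie just below the lowest of them, -0.17.

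Other genes of replication, 52 that are not members, were counted beside them. In MCF10A, 3 were called higher and 11 lower with miR-28 (median -0.19), and 3 higher and 19 lower with miR-708 (median -0.23). In hTERT RPE-1, 21 were called higher and 4 lower with miR-28 (median 0.32), and 38 higher and 4 lower with miR-708 (median 0.84). Some fell in both lines, among them UNG, which removes uracil from DNA (-1.15 ± 0.17 in MCF10A and -1.21 ± 0.21 in hTERT RPE-1 with miR-708). RRM2B, the p53-induced subunit of ribonucleotide reductase, rose by 1.33 ± 0.13 and 1.23 ± 0.13 in MCF10A and by 1.40 ± 0.11 and 1.35 ± 0.11 in hTERT RPE-1. SAMHD1, which breaks down deoxynucleotides, rose in both lines, by 3.07 ± 0.14 and 3.80 ± 0.57 with miR-708. GMNN, the inhibitor of CDT1, rose in hTERT RPE-1 by 0.89 ± 0.18 and 1.90 ± 0.18, and was also called higher in MCF10A, with miR-708 (0.57). TOPBP1, needed for firing, fell in MCF10A by 0.63 ± 0.12 and 0.95 ± 0.12 on the log2 scale.

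Upstream of the members, CCNE1, the cyclin that drives entry into S phase, fell with both mimics in both lines. It fell in MCF10A (-0.92 ± 0.23, adjusted p = 0.0152 and -1.08 ± 0.23, adjusted p = 0.00434) and in hTERT RPE-1 (-1.02 ± 0.22, adjusted p = 0.00399 and -1.62 ± 0.22, adjusted p = 1.15e-04). CCNE2, its close relative, was called against siNT in neither line. CCNA2, the cyclin of S phase and G2, rose with miR-708 in hTERT RPE-1 (1.04 ± 0.18, adjusted p = 6.23e-04), and CDKN1A, the inhibitor of CDK2, fell there with miR-708 (-0.93 ± 0.10, adjusted p = 2.23e-05). E2F7, a repressor of E2F targets, rose in hTERT RPE-1 with both mimics (2.41 ± 0.19, adjusted p = 7.13e-06 and 3.69 ± 0.19, adjusted p = 2.32e-07), and E2F8, a related repressor, with miR-708 (1.50 ± 0.26, adjusted p = 4.96e-04). E2F7 was also called higher in MCF10A, with miR-28 (0.48). Its mean values there were 825 with siNT, 1148 with miR-28 and 1064 with miR-708. E2F2, an activator, was called in no comparison with siNT.

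Genes of mitosis and G2/M, 30 in number, were counted as well. In MCF10A, 6 were higher and 1 lower with miR-28 (median 0.16) and 8 higher and 2 lower with miR-708 (median 0.16). In hTERT RPE-1, 6 were higher and 2 lower with miR-28 (median 0.24) and 26 higher and none lower with miR-708 (median 1.21). Among 13 G1 cyclins, CDKs and genes of the RB family tested in MCF10A, 1 was higher and 1 lower with miR-28, and 2 and 2 with miR-708. Among 15 in hTERT RPE-1, 5 were higher and 2 lower with miR-28, and 6 and 5 with miR-708, where CDKN2B, an inhibitor of CDK4 and CDK6, fell by 2.62 ± 0.24 on the log2 scale. The list of E2F factors and S phase cyclins held 15 genes, of which 1 was higher and 3 lower with miR-28 and 1 and 2 with miR-708 in MCF10A, against 3 and 2 with miR-28 and 8 and 2 with miR-708 in hTERT RPE-1. The backgrounds for all these lists in MCF10A were 10.7% higher and 12% lower with miR-28, and 15.5% and 17.3% with miR-708. In hTERT RPE-1 they were 23.3% and 23.5% with miR-28, and 30.9% and 31.2% with miR-708.

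**Figure D5:**
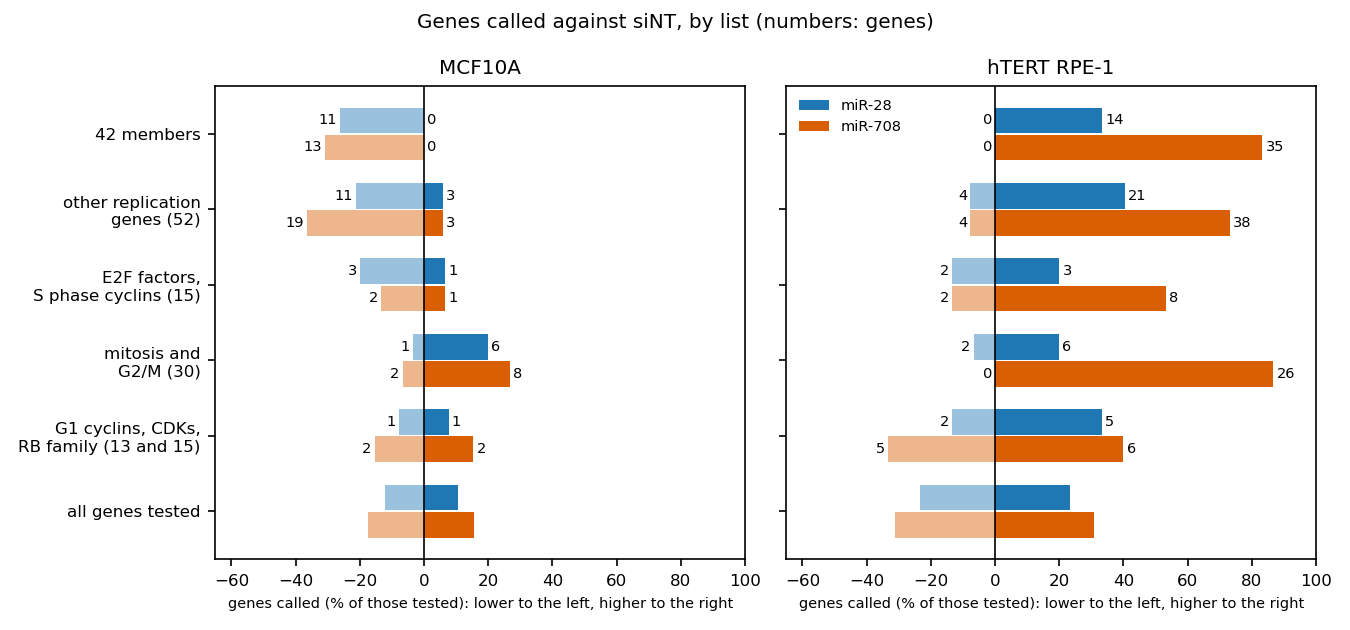
The x axis gives the percentage of the tested genes of a list that were called against siNT, lower to the left and higher to the right, for miR-28 (blue) and miR-708 (orange), with the number of genes beside each bar. In MCF10A the 42 members reach to the left alone, 11 and 13 genes, and in hTERT RPE-1 to the right alone, 14 and 35 genes.

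The labelled cell types were checked by their markers. MCF10A expressed 10 of 10 markers of its basal epithelial identity, with summed values of 238636 to 253378 with siNT, 164863 to 180014 with miR-28 and 138831 to 170945 with miR-708. Of these 10, hTERT RPE-1 listed 4, with sums of 929 to 1135 with siNT. In hTERT RPE-1, 9 of 12 markers of retinal pigment epithelium were listed, with sums of 29892 to 31696 with siNT, 11681 to 12853 with miR-28 and 7303 to 7737 with miR-708, and RPE65, TYR and TTR were not listed. The 12 include the keratins KRT8 and KRT18, listed in both lines. MCF10A listed 7 of these 12, RPE65 among them, with sums of 9105 to 10452 with siNT and 8696 to 11203 with miR-708. With miR-708 the retinal markers were thus no higher in hTERT RPE-1 than in MCF10A, though the lines were scaled separately. All 6 fibroblast markers were listed in hTERT RPE-1, with sums of 35137 to 83379 with siNT, 12893 to 24628 with miR-28 and 4325 to 8729 with miR-708, and 3 of 6 in MCF10A, without COL1A2, COL3A1 and LUM, with 1496 to 3312 with siNT, 3325 to 10208 with miR-28 and 5475 to 14269 with miR-708. Of the leukocyte markers 3 of 6 were listed in each line, with sums of 626 to 738 with siNT, 699 to 3922 with miR-28 and 4961 to 7460.5 with miR-708 in hTERT RPE-1 and 479.8 to 754 with siNT, 611 to 795 with miR-28 and 1087 to 1279.6 with miR-708 in MCF10A, and CD3E was listed in neither line. Of the endothelial markers 2 of 4 were listed in each line, CDH5 in neither, with sums of 224 to 351 with siNT, 564 to 684 with miR-28 and 869.6 to 1248 with miR-708 in hTERT RPE-1 and 403 to 599.7 with siNT, 421 to 734 with miR-28 and 356 to 507 with miR-708 in MCF10A. The part of these shifts in the results was not tested. The depth estimated from the steps of low values was 19.3 to 31.7 M reads in MCF10A and 23.7 to 40.3 M in hTERT RPE-1, at which the lowest value of any member, 51.7 for POLE2, lay above a floor of 3 reads (values of up to 4.42). That floor covers counting error only.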

How the data were processed

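The 18 libraries of polyadenylated RNA were grouped by their labels. According to the methods and the submitters' processing notes, adapters were trimmed, reads were mapped with HISAT2 2.1.0 against hg38, and transcripts were quantified in Partek Flow. The authors deposited an expression signal per gene, which is a read count that need not be whole after division by the size factor of its library, in 1 table a line. Between 82.0% and 88.7% of low values (0.3 to 8) lay within 0.02 of a step of a whole multiple of it, so whole reads were not recovered and no count model was run. The deposited tables of the authors' own comparisons (fold changes with their p-values) were not used. The analysis used log2(value + 1) and kept genes at 10 or more in at least 3 of 9 libraries of a line, and 3 group means were fitted with limma 3.58.1 in R 4.3.3 with a trend over the mean. All members passed this filter, among 14726 genes tested in MCF10A, 14527 in hTERT RPE-1 and 13339 in both. A gene was called at an adjusted p below 0.05 (Benjamini-Hochberg, over all genes). Differences between lines used the standard errors of both fits with Welch-Satterthwaite degrees of freedom. The scripts were tested on simulated data. The p-values measure the spread between these biological replicates.

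The members and lists were chosen with earlier results of these data known. All 42 members may be named, and from each other list at most the 2 highest and 2 lowest called genes by the mean of both mimics in a line, with CCNE1, CCNE2, CCNA2, CDKN1A, E2F2, E2F7 and E2F8. Libraries of the same number deviated together from their group means in MCF10A. Their correlations over genes were 0.26, 0.18 and 0.11 between miR-28 and siNT and 0.30, 0.11 and 0.16 between miR-708 and siNT. Between the mimics in hTERT RPE-1 they were 0.28, 0.20 and 0.13. Different numbers gave -0.20 to 0.11, -0.20 to 0.074 and -0.27 to 0.050 in the same order, so replicate 9 of miR-28 and siNT did not stand out. Against siNT in hTERT RPE-1, the same numbers gave 0.042, 0.15 and 0.073 with miR-708 and 0.021, 0.043 and 0.023 with miR-28. Different numbers gave -0.12 to 0.040 and -0.034 to 0.013 there. The numbers were taken to pair the libraries in MCF10A and between the mimics, and weakly at most elsewhere. Motifs and 3′ UTRs came from RefSeq promoters (GRCh38.p14) and a GENCODE annotation of hg38, with 1 transcript a gene. Alternatives were a pseudocount of 5, no filter, library size scaling, a replicate block, no trend, the 6 libraries compared, an added 2-fold minimum, and each library left out. Tables and figures were made in Python 3.11.15 (pandas 2.3.3, numpy 2.4.6, matplotlib 3.10.9).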

Additional observations from a re-analysis of the deposited data

Results flagged for a closer look

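The response to a mimic differed between the lines for many members. The difference itself was tested by a t-test on the estimates of the separate limma fits, with Benjamini-Hochberg adjustment over 13339 genes. Each value is the log2 fold change in hTERT RPE-1 minus that in MCF10A, positive throughout. With miR-28, 18 members differed, which were CDT1 (1.59), PRIM1 (1.45), RAD51AP1 (1.38), ORC1 (1.10), PCNA (1.09), POLE2 (1.02), CDC6 (0.96), MCM10 (0.96), RFC4 (0.79), POLD3 (0.78), SLBP (0.75), RFC3 (0.74), RFC5 (0.72), MCM4 (0.70), LIG1 (0.69), MCM3 (0.68), RFC2 (0.66) and FEN1 (0.65). With miR-708, 39 members differed, which were CDT1 (2.52), PRIM1 (2.52), RAD51AP1 (2.51), ORC1 (2.33), MCM10 (2.06), ORC6 (1.94), CDC6 (1.88), POLE2 (1.87), CDC45 (1.85), RFC4 (1.61), GINS1 (1.61), GINS3 (1.61), CHAF1A (1.58), FEN1 (1.57), CLSPN (1.55), RFC3 (1.52), MCM4 (1.47), RFC5 (1.47), RFC2 (1.46), MCM3 (1.46), MCM5 (1.45), POLD3 (1.38), E2F1 (1.36), RRM2 (1.33), LIG1 (1.32), PCNA (1.31), POLA2 (1.24), CHAF1B (1.12), MCM2 (1.12), GINS2 (1.09), RRM1 (1.05), MCM7 (1.02), POLE (0.97), MCM6 (0.92), UHRF1 (0.91), POLA1 (0.76), SLBP (0.76), GINS4 (0.72) and RPA2 (0.69). Groups of 3 libraries are too small for a search for single outlying samples.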

How the results depend on the processing

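With 1 library left out at a time, the members called ranged from 5 to 16 with miR-28 and 6 to 17 with miR-708 in MCF10A, and from 9 to 18 and 34 to 38 in hTERT RPE-1. They ranged from 17 to 35 between the mimics in hTERT RPE-1, and from 10 to 21 and 38 to 41 between the lines with miR-28 and miR-708. The median change between the mimics in MCF10A, -0.0034, ranged from -0.13 to 0.057. Of the calls made, 5 of 11 with miR-28 and 6 of 13 with miR-708 in MCF10A and 8 of 14 and 34 of 35 in hTERT RPE-1 held without any 1 library.

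With each library scaled to the same total, the median over all genes moved to 0.12 and 0.14 in MCF10A and to 0.091 and 0.32 in hTERT RPE-1 with miR-28 and miR-708, and to 0.23 between the mimics there. In MCF10A, 7 members were then called with miR-28, 6 lower and GINS4 higher, and 7, all lower, with miR-708. The median of the members in MCF10A moved closer to zero, to -0.12 with miR-28 and -0.066 with miR-708. In hTERT RPE-1 it became 0.44 with miR-28 and 1.56 with miR-708, and that between the mimics in MCF10A became 0.029. Among all called genes the share called higher went from 47.1% to 66.1% and from 47.3% to 67.6% in MCF10A, and in hTERT RPE-1 from 49.7% to 71.8% with miR-708, from 46.5% to 84.8% between the mimics, and from 50.8% to 68.4% between the lines with miR-708, where the median over all genes moved to 0.15. The changes of POLA1 and POLD1 with miR-708 in hTERT RPE-1, not called, became 0.25 and 0.25 under this scaling. Without any 1 library, they ranged from -0.21 to 0.12 and from -0.18 to 0.085, and that of MCM6 from -0.078 to 0.30. The cause was not tested.

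Without a trend, 5 members were called with miR-28 in MCF10A. With a 2-fold minimum added, 1 and 1 were called in MCF10A, 3 and 23 in hTERT RPE-1 and 14 between the mimics there. With the replicate block, 15 and 15 members were called in MCF10A, 12 and 35 in hTERT RPE-1, 31 between the mimics there, and 18 and 40 between the lines. Calls over all genes rose with it from 3347 to 4408 and from 4835 to 5818 in MCF10A, and from 6798 to 6997 with miR-28 in hTERT RPE-1. In MCF10A the paired fit added CDC45, GINS3, MCM10 and RFC4 with miR-28 and CHAF1B and POLE with miR-708, and between the mimics in hTERT RPE-1 it dropped POLD3. It added TYMS between the lines with miR-708, where the numbers pair the hTERT RPE-1 libraries weakly at most. With miR-28 in hTERT RPE-1, where the numbers also pair weakly at most, it dropped ORC6, CDC6 and RPA2 and added TYMS. All members lay above the depth floor.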
